A study of Homo sapiens with 8 samples.

Results

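All 4 arrays of A549 cells exposed to a pollutant mixture were set against all 4 arrays of unexposed cells, so that the comparison held 8 of the 8 arrays of the series, and the effect common to both mixtures was described gene by gene with the effect in each exposure run beside it. A549 is a line of human lung adenocarcinoma cells that is widely used as a model of the lung epithelium. The cells had been grown in F-12K medium, placed at an air-liquid interface, exposed for 4 hr and left for another 9 hr before RNA was taken. The primary pollutants (fresh urban mix in the labels) were a synthetic mixture of urban hydrocarbons and nitrogen oxides delivered in the morning, and the photochemically altered (PCA) pollutants (aged urban mix) were the same mixture after sunlight had acted on it, delivered in the evening. Each mixture had its own control group, kept in incubator air at that time of day and described in the labels as exposed to humidified air, and each of the 4 groups held 2 arrays.

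The methods call the arrays of a group biological duplicates, but both came from a single exposure run. The p-values of the common effect thus measure the spread within groups and the difference of the effect between these runs. Those of the effect in each run and of the difference between the runs measure the spread within groups alone. No p-value here measures the spread among repeated experiments. The methods describe a chamber through which the mixture was drawn for the exposed cells and incubator air for the controls, so that the pollutants and the handling of the chamber cannot be told apart. A difference between the runs holds the mixture, the time of day and the culture set together, which likewise cannot be told apart. All groups were of 1 carcinoma cell line. Its labelled identity was checked against markers: all 5 keratin and EPCAM genes of epithelial cells had a mean signal of 300 or more, whereas of the 10 alveolar type II markers with a probe set, 10 reached 30 and only 1 reached 300. The defining genes of fibroblasts, leukocytes and endothelial cells were mostly dim, with medians of 75.7, 45.5 and 54.0 on the linear signal scale. The alveolar type II median was 81.4, and 1 fibroblast and 1 leukocyte marker also reached 300. Signal thus did not set the alveolar list apart from the fibroblast list. In all, 0 genes of the 5 marker lists were called. At an unadjusted p under 0.05 in limma, 2 alveolar type II markers were higher and 1 lower, 1 keratin marker was lower, 1 fibroblast marker was higher and 1 lower, 1 endothelial marker was higher and 0 leukocyte markers were either, and a trended and robust prior called 0 in each list. Summed over a list, the fibroblast signal lay between 748 and 762 on the controls and between 717 and 750 on the exposed arrays, and the leukocyte signal between 1070 and 1232 and between 1136 and 1328.

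Airway epithelial cells meet inhaled oxidants and organic vapours first. Known responses of such cells include chemokine release through NF-kB, the antioxidant programme of NRF2, the cytochrome P450 programme of the aryl hydrocarbon receptor, and growth factor signalling that goes with wound repair. Cells that lack nutrients or growth signals instead use transcription factors of the FOXO family, whose targets restrain growth.

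Values are log2 signals, and effects are log2 fold changes of exposed over unexposed cells from a limma model in which the exposure run was a block. RNA came from whole cultures, so that fewer cells with a transcript and less of it per cell cannot be told apart. A gene is said to rise or fall only where its Benjamini-Hochberg adjusted p, over all 25412 probe sets tested, was under 0.05 and its change was at least 1.5-fold. In this model a gene whose effect differs between the runs has a larger error, so that the test favours effects of similar size in both runs.

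The exposed arrays differed from the controls in the spread of their values before any gene was considered. The standard deviation of the log2 signals over all probe sets was 2.07 on each of the 4 controls, 2.04 and 2.06 after the primary pollutants, and 1.98 and 1.99 after the PCA pollutants. With the genes in 10 equal bins by mean signal, the median common effect went from 0.11 in the bin of lowest signal to -0.09 in bin 9. After quantile normalization, an alternative chosen after the data were seen that gives every array the same spread, the same bins had medians of 0.01 and -0.02. The part of this spread in the effects that follow was not tested. Some, but not all, of the called genes that no longer passed after quantile normalization are named.

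**Figure D1:**
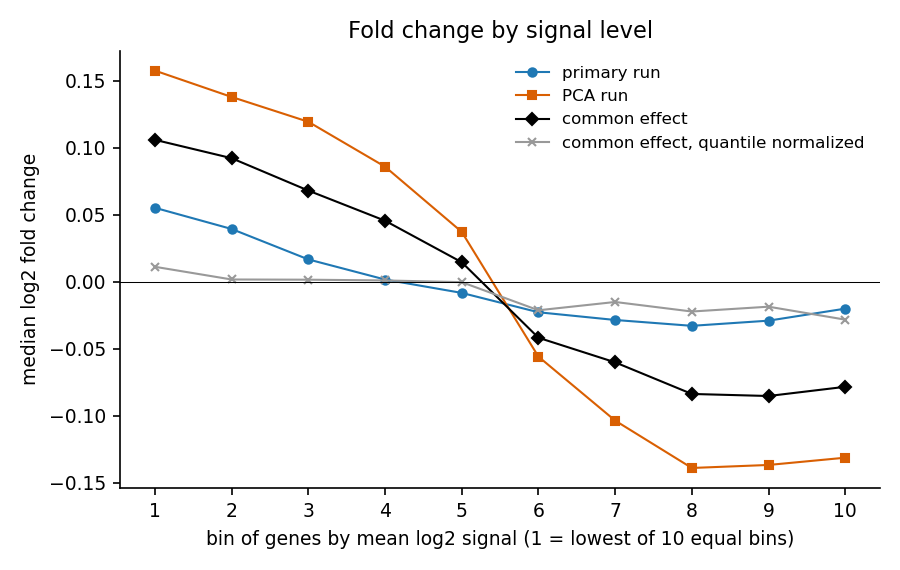
Median log2 fold change (y axis) of the genes in each of 10 equal bins by mean log2 signal (x axis, 1 is the lowest) for the primary run, the PCA run, the common effect, and the common effect after quantile normalization. The common effect runs from 0.11 in the lowest bin to below 0 in the upper 5 bins, more steeply in the PCA run than in the primary run, and the quantile-normalized line stays between -0.03 and 0.01.

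Across both runs 75 of 17540 genes passed the test (0.428%), of which 17 rose (0.0969%) and 58 fell (0.331%). Only 5 of them changed at least 2-fold: the rise was that of FGFBP1, a secreted protein that frees fibroblast growth factors from the matrix, and the falls were those of the retinal reductase DHRS3, the Wnt antagonist SFRP4, the phospholipid flippase ATP8B1 and the carboxypeptidase inhibitor LXN. Most of the 75 lay close to the limit, with 487 genes (2.78%) under an adjusted p of 0.05 at any fold and 3 genes under 0.01 at 1.5-fold, namely SLC5A3, CCL2 and NFKBIA. Of all genes, 4661 had an unadjusted p under 0.05, 1764 higher (10.1%) and 2897 lower (16.5%) in exposed cells. The counts depended on single arrays. Without the first array of the primary pollutants, the first control of the primary run or the second control of the PCA run, 0 genes were called by the same model. Leaving out the first control of the PCA run left 3 calls, the first PCA array 2 and the second PCA array 4, whereas 187 were made without the second primary array and 72 without the second control of the primary run. None of the 75 genes turned its direction in any of these 8 fits, and 0 were called in all of them. After quantile normalization 46 genes were called, 40 of them among the 75, and the 35 that no longer passed included FGFBP1, CXCL5, STAMBPL1, SERPINE2, NID2, DNAJC5B, CTPS1, H3C10, FGG, C1RL, TNFSF10, ALDH6A1, TP53INP1, SESN3, LXN, SFRP4 and DHRS3, which are described further on. With no limit on signal 17 genes were called, and with a trended and robust prior limma called 87, which included all 75.

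The same 75 genes were not called alike in each run alone. In the primary run limma called 0 of 17540 genes, with 1380 (7.87%) at an unadjusted p under 0.05 and 6 called with a trended and robust prior, and in the PCA run it called 616 (3.51%), of which 153 rose (0.872%) and 463 fell (2.64%). As a description, since calling on the pooled arrays selects for it, all 75 had the same sign in both runs, as did 65.6% of all genes, and in all 75 the exposed arrays of each run lay beyond the controls of that run, as in 22.5% of all genes. All 4 exposed arrays lay above all 4 controls in each of the 17 rises, as in 4.78% of all genes, and below them in each of the 58 falls, as in 10% of all genes. Among the 17 genes that rose, the median log2 fold change was 0.44 in the primary run and 0.88 in the PCA run, and among the 58 that fell it was -0.40 and -1.0. The PCA effect was the larger in 15 of the 17 rises and in 58 of the 58 falls, the exceptions being OR4A47 and DNAJC5B. A test of the difference between the runs passed for 14 of the 75 genes, against 77 of all genes (0.439%). Measured against the controls of their run, the 17 rises had medians of 0.56 and 0.38 on the 2 primary arrays and 1.02 and 0.85 on the 2 PCA arrays. The 58 falls had medians of -0.48 and -0.34, then -1.05 and -1.0, so that the first primary array showed more of the common pattern than the second.

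**Figure D2:**
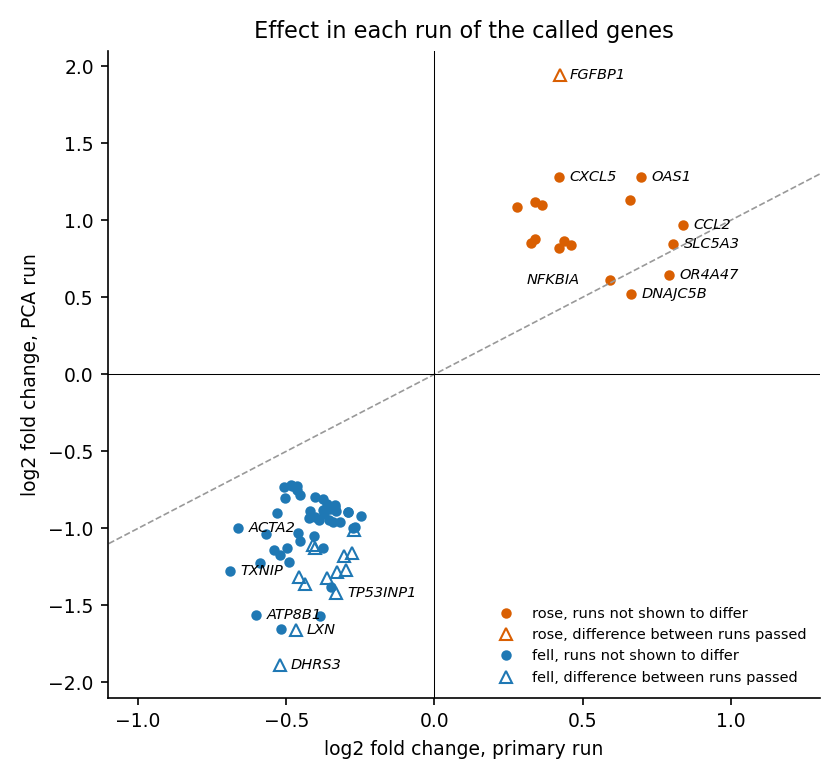
Log2 fold change in the primary run (x axis) and in the PCA run (y axis) of the 75 genes called in the pooled comparison, with rises in orange and falls in blue. Triangles mark the 14 genes whose effects differed between the runs at an adjusted p under 0.05, and the dashed line marks equal effects: 73 of the 75 genes show the larger effect in the PCA run, with OR4A47 and DNAJC5B as the exceptions.

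Effects of at least 1.5-fold in both runs were found for 10 genes, 0.057% of all genes tested, and all 10 were among the 75. Rises were seen for SLC5A3, CCL2, NFKBIA, OAS1, PAQR5 and OR4A47, and falls for ATP8B1, TXNIP, ACSM3 and ACTA2. They encode a carrier of an osmolyte, a chemokine, an inhibitor of NF-kB, an antiviral enzyme, a steroid receptor of the membrane, an olfactory receptor, a flippase, a regulator of glucose uptake, a fatty acid ligase and an actin.

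**Figure D3:**
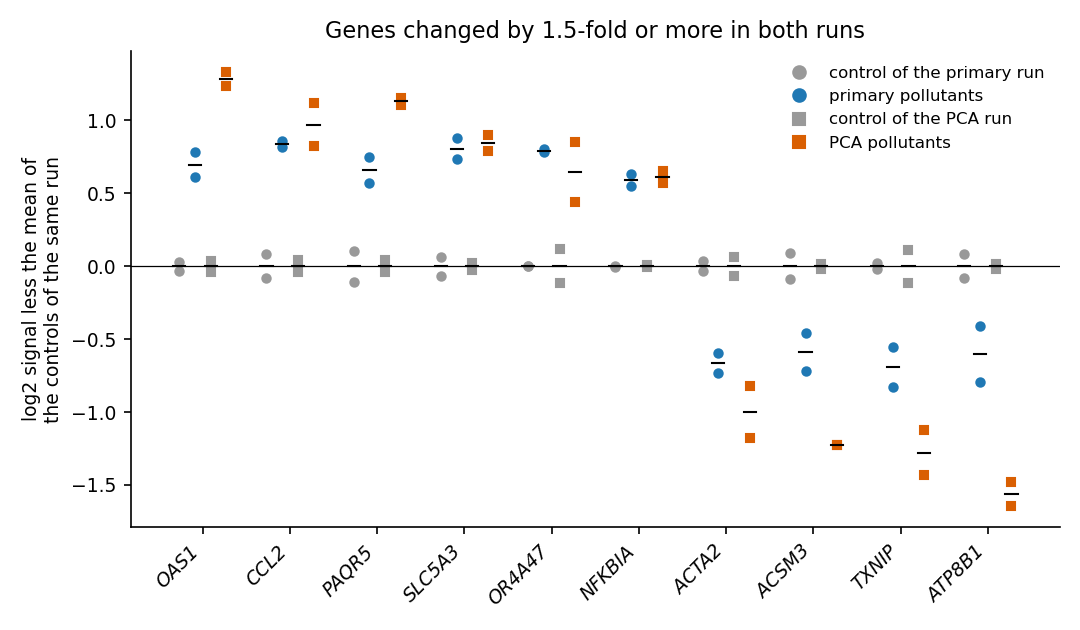
Log2 signal of each array less the mean of the 2 controls of its run (y axis) for the 10 genes changed by 1.5-fold or more in both runs (x axis). Circles are arrays of the primary run, squares are arrays of the PCA run, controls are grey, and bars are group means; in every gene the exposed arrays lie beyond the controls of their run.

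SLC5A3, which carries myo-inositol into cells under osmotic stress, had the smallest p of all genes. Its log2 signal was 9.08 and 9.21 on the controls of the primary run, 10.02 and 9.88 after the primary pollutants, 9.17 and 9.21 on the controls of the PCA run, and 10.09 and 9.98 after the PCA pollutants. All exposed arrays were thus above all controls, and both mixtures brought the gene to nearly the same level. The common effect was 0.83 (standard error 0.07, adjusted p = 0.00716), with 0.81 in the primary and 0.85 in the PCA run. The PCA response less the primary response was 0.04, with a 95% interval of -0.25 to 0.33. SLC5A3 was called in 5 of the 8 fits that left out 1 array. Of the 12 tested genes of osmotic stress it was the only one called, the list having a median of 0.13, and NFAT5, the transcription factor of that response, was at 0.04 (adjusted p = 0.618).

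CCL2, the chemokine that draws monocytes, was at 7.80 and 7.97 on the controls of the primary run and 8.70 and 8.74 after the primary pollutants. In the PCA run it was at 7.68 and 7.76 on the controls and 8.84 and 8.55 after exposure. The groups did not overlap, and the common effect was 0.90 (standard error 0.08, adjusted p = 0.00895). The difference between the runs was 0.13 (95% interval -0.23 to 0.50), and the gene was called in 5 of the 8 fits without 1 array. CXCL5, a chemokine for neutrophils, rose by 0.85 (adjusted p = 0.0419), with 0.42 in the primary and 1.28 in the PCA run, and after quantile normalization it no longer passed (adjusted p = 0.0549). On single arrays CXCL5 went from 10.31 and 10.48 to 10.99 and 10.63 in the primary run, so that the second primary array was close to its controls, and from 10.29 and 10.25 to 11.59 and 11.52 in the PCA run. The other 14 tested chemokines did not pass, among them CXCL8 at 0.31 (-0.06 in the primary and 0.68 in the PCA run) and CCL20 at 0.27. The median over the 16 chemokines was 0.20, beside 0.00056 over all genes, and 14 of the 16 were above 0, as were 50.1% of all genes. The list had a median signal of 6.54, within bin 3 of signal, whose median common effect was 0.07. After quantile normalization the list median was 0.14.

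NFKBIA, which encodes the inhibitor that holds NF-kB in the cytoplasm and is itself a target of NF-kB, showed the most even response. Its signal was 10.37 and 10.38 on the controls of the primary run, 11.01 and 10.93 after the primary pollutants, 10.25 and 10.27 on the controls of the PCA run, and 10.91 and 10.83 after the PCA pollutants. Replicate arrays were close to each other, and no exposed array overlapped a control. The common effect was 0.60 (standard error 0.06, adjusted p = 0.00981) and the difference between the runs 0.02 (95% interval -0.22 to 0.26). NFKBIA was called in 3 of the 8 fits without 1 array. It was the sole call among 23 tested subunits, inhibitors and targets of NF-kB, whose median of 0.01 changed sign with median centring (-0.03), cyclic loess and quantile normalization and lay between -0.04 and 0.06 without single arrays. Early targets were uneven: IER3 was at 0.52 and IRAK2 at 0.37, each under an adjusted p of 0.05 but short of 1.5-fold, while TNFAIP3 was at 0.01, ICAM1 at 0.05 and NFKBIZ at -0.41.

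Promoter sequences, credited to RefSeq on GRCh38.p14, were found for 6 of the 10 genes (OAS1, SLC5A3, OR4A47, NFKBIA, ACTA2 and TXNIP), each 300 bases long with 250 before and 50 after the start. The promoters of NFKBIA and TXNIP are shown because they hold matches to an NF-kB motif and to a FOXO motif, factors whose other targets are described beside these genes. ACTA2, which is not printed, also holds the FOXO letters, at -221, and those of an interferon-stimulated response element (ISRE), at -250. The NFKBIA promoter spans chr14:35404700-35404999 on the minus strand, and its capitals mark the match at -81 to an NF-kB motif (the letters GGGA, any 3 bases, then TCC), searched on both strands.
NFKBIA: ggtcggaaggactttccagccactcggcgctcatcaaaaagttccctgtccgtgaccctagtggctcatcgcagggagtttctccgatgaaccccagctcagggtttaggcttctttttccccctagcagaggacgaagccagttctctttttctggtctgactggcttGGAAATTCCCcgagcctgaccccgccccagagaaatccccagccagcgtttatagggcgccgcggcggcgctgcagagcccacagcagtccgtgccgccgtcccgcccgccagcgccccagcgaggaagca
The TXNIP promoter spans chr1:145996530-145996829 on the minus strand, and its capitals mark the match at -124 to the letters TGTTTAC on the opposite strand.
TXNIP: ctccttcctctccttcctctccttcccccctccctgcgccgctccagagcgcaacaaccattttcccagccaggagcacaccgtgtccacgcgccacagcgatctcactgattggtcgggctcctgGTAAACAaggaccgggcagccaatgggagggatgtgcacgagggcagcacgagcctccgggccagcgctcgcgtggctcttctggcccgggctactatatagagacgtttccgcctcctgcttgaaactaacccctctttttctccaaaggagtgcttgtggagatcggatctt
The NF-kB letters occur in 5.07% of all 27305 promoters of this length, in 2 of the 11 promoters of rising genes that the table holds and in 5 of the 44 of falling genes. The FOXO letters occur in 3.41% of all promoters, in 1 of the 11 and in 3 of the 44, and neither motif overlaps the other in the promoters printed. Over promoters of the genes tested the shares were 5.44% for NF-kB and 2.4% for FOXO. Other motifs were searched as well. ISRE letters occur in 0 of the 11 and 5 of the 44 (2.94% of genes tested), and AP-1 letters in 1 and 3 (5.43%). CRE letters occur in 0 and 0 (2.73%), and CCAAT box letters in 6 and 15 (35.9%). A match is a run of letters and no evidence of binding.

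OAS1, which makes the second messenger of an antiviral RNA-decay pathway, rose by 0.99 (standard error 0.12, adjusted p = 0.0255), with 0.70 in the primary and 1.28 in the PCA run. Its signal was 10.07 and 10.005 on the controls of the primary run, 10.82 and 10.65 after the primary pollutants, 9.89 and 9.97 on the controls of the PCA run, and 11.26 and 11.16 after the PCA pollutants. HERC6, another interferon-induced gene, which encodes a HERC-family protein, moved in the opposite direction, with a common effect of -0.61 (adjusted p = 0.0301). It went from 7.28 and 7.25 to 6.83 and 6.77 in the primary run and from 7.26 and 7.32 to 6.50 and 6.58 in the PCA run. These were the only calls among 33 tested interferon-induced genes. The list median was -0.08 (-0.14 to -0.04 without single arrays), with 0.001 in the primary and -0.15 in the PCA run. It turned to 0.03 when arrays were scaled to ribosomal protein genes, which raised all genes by the same amount and put the median of all genes at 0.12. STAT4, a transcription factor of cytokine signalling, was at -0.84, TLR1, a receptor of bacterial lipopeptides, at -0.81, and TNFSF10, the death ligand TRAIL, at -0.74, all 3 called as falls.

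PAQR5, a membrane receptor of progestins, rose by 0.90 (standard error 0.10, adjusted p = 0.0255), from 9.15 and 9.36 to 10.01 and 9.83 in the primary run and from 9.25 and 9.33 to 10.45 and 10.40 in the PCA run. All 4 exposed arrays were above all 4 controls. The other 9 tested members of its list of PAQR receptors and their partners lay between -0.19 and 0.18, none of them called. OR4A47, an olfactory receptor gene, rose by 0.72 (adjusted p = 0.0381; 0.62 after quantile normalization) at a low level of signal, from 5.04 on both controls to 5.82 and 5.84 in the primary run and from 5.23 and 5.0 to 5.96 and 5.55 in the PCA run. This gene lay within a broad shift: the 289 tested olfactory receptor genes had a median of 0.17, with 267 above 0, and the median was 0.08 after quantile normalization. DNAJC5B, a J-domain chaperone, was similar in level and in size, at 4.36 and 4.15 against 4.86 and 4.98 in the primary run, with a common effect of 0.59 that was 0.49 after quantile normalization (adjusted p = 0.0549).

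Among growth factor genes the calls were of 1 ligand, 1 receptor and 1 feedback phosphatase. NRG1, the ligand of ERBB3 and ERBB4, rose by 0.73 (standard error 0.14, adjusted p = 0.0413), from 9.24 and 9.34 to 9.71 and 9.59 in the primary run and from 8.95 and 9.00 to 10.18 and 9.97 in the PCA run. ERBB3, its receptor, fell by 0.86 (standard error 0.14, adjusted p = 0.0396), from 8.34 and 8.30 to 7.77 and 7.90 and from 8.61 and 8.80 to 7.41 and 7.55. Ligand and receptor thus changed in opposite directions, with no overlap of exposed and unexposed arrays in either gene. Of the other 6 tested ERBB receptors and partners none was called: EGFR was at 0.42 (adjusted p = 0.0396, short of 1.5-fold), ERBB2 at -0.48 (adjusted p = 0.0661) and NRG4 at -0.53 (adjusted p = 0.0549). Of 7 EGFR ligands 5 were tested and none of these was called, so the count does not cover the whole family. The study lists AREG, another EGFR ligand, as raised by the PCA pollutants, and no value for it is given here. Of the 5, 3 were at an unadjusted p under 0.05 in limma at any fold. With the 1.5-fold limit, 0 were called with a trended and robust prior and 1 by an unadjusted analysis of variance. HBEGF was at 0.51, TGFA at 0.38 and EREG at 0.84 (0.19 in the primary and 1.5 in the PCA run, adjusted p = 0.0695).

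DUSP5, a nuclear phosphatase that ERK induces and that switches ERK off, rose by 0.65 (standard error 0.09, adjusted p = 0.0381), from 8.97 and 9.06 to 9.54 and 9.42 in the primary run and from 8.76 and 8.70 to 9.63 and 9.51 in the PCA run. The related phosphatases DUSP1 and DUSP6 were at 0.55 and 0.35, each under an adjusted p of 0.05 but below the fold limit, and the median of 17 MAPK feedback genes was 0.08, with 0.05 to 0.21 without single arrays. FGFBP1 rose most in the pooled fit, by 1.18 (standard error 0.26, adjusted p = 0.0484), with 0.42 in the primary and 1.94 in the PCA run. Its signal went from 7.83 and 7.79 to 8.27 and 8.20 in the primary run and from 7.31 and 7.10 to 9.02 and 9.27 in the PCA run, where the controls were also lower. The difference between the runs, 1.52, passed its own test (adjusted p = 0.023). SERPINE2, an inhibitor of thrombin and urokinase, rose by 0.68, with 0.28 in the primary and 1.08 in the PCA run, and neither gene passed after quantile normalization (adjusted p = 0.0636 and 0.0625). They were the only calls among 23 genes of urokinase, matrix and migration, whose median was 0.18, with 0.06 in the primary run and 0.45 in the PCA run. The primary value moved with each array of that run, to 0.01 without the first primary array, 0.13 without the second, -0.01 without the first control and 0.10 without the second. Other rises were those of S100A3, a calcium-binding protein (0.65), STAMBPL1, a deubiquitinase (0.73), NID2, a basement membrane protein (0.62), CTPS1, which makes CTP (0.59), and GABRA5, a subunit of the GABA receptor (0.61).

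SFRP4, a secreted antagonist of Wnt, fell by 1.09 (standard error 0.22, adjusted p = 0.0435). It went from 7.54 and 7.39 to 6.75 and 7.14 in the primary run and from 7.64 on both controls to 6.23 and 5.73 in the PCA run, where the exposed arrays differed most from each other.

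Genes that restrain growth or signal nutrient stress made up part of the falls. TXNIP, which binds thioredoxin and limits glucose uptake, fell by 0.98 (standard error 0.14, adjusted p = 0.0381), from 7.43 and 7.39 to 6.59 and 6.86 in the primary run and from 7.64 and 7.87 to 6.32 and 6.63 in the PCA run. The other 4 tested alpha-arrestins, the family to which TXNIP belongs, were between -0.29 and -0.12 and none was called. SESN3, a sestrin that restrains mTORC1, fell by 0.98 (adjusted p = 0.0484), from 7.74 and 7.89 to 7.25 and 7.61 and from 8.11 and 7.87 to 6.49 and 6.36, with the second primary array close to its controls. DEPTOR, an inhibitor within the mTOR complexes, fell by 0.77, and TP53INP1, a stress-induced autophagy protein, fell by 0.88. After quantile normalization DEPTOR passed, and SESN3 and TP53INP1 did not (adjusted p = 0.0659 and 0.0634). Of 29 tested FOXO targets and growth restraint genes these 3 were called, 6 with a trended and robust prior. TP53INP1 was also the only call among 22 tested p53 target genes, whose median was -0.08 (0.04 under ribosomal scaling). The list of FOXO targets and growth restraint genes had a median of -0.25 (-0.06 in the primary and -0.43 in the PCA run). Its primary median was -0.12 without the first control of that run and -0.03 without the second. In the common effect 22 of its 29 members were below 0, as were 49.9% of all genes. PDCD4, an inhibitor of translation, was at -0.88 (adjusted p = 0.0599) with -0.26 in the primary and -1.5 in the PCA run, and FOXO1 and FOXO3 were both at 0.13. The 3 calls differed in the runs: DEPTOR was at -0.40 and -1.13, TP53INP1 at -0.33 and -1.42, and SESN3 at -0.39 and -1.57, with the difference passing for DEPTOR and TP53INP1 (adjusted p = 0.0392 and 0.023) and not for SESN3 (adjusted p = 0.06).

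The retinoid enzyme DHRS3 and the carotenoid enzyme BCO1 were among the largest falls, as was LXN. DHRS3, which returns retinal to retinol, fell by 1.20 (standard error 0.24, adjusted p = 0.0422), from 9.30 and 9.31 to 8.68 and 8.89 in the primary run and from 9.52 and 9.67 to 7.57 and 7.85 in the PCA run. BCO1, which cleaves beta-carotene to retinal, fell by 0.89. LXN, a relative of the retinoid-responsive gene RARRES1, fell by 1.06. LXN went from 8.58 and 8.55 to 8.05 and 8.16 and from 8.92 and 9.10 to 7.25 and 7.44 in these runs, with no overlap. For all 3 the fall was smaller in the primary run (-0.52, -0.46 and -0.47) than in the PCA run (-1.88, -1.31 and -1.66), a difference that passed in each case, and DHRS3 and LXN did not pass after quantile normalization (adjusted p = 0.0549 for both). The remaining 17 of 20 tested retinoid genes did not pass. The list median of -0.06 (-0.07 to -0.03 without single arrays) turned to 0.06 under ribosomal scaling, and CYP26A1 and CYP26B1, which break down retinoic acid, were at 0.09 and 0.06.

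Falls of mitochondrial and lipid enzymes formed another group. ACSM3, a ligase that activates medium-chain fatty acids, fell by 0.91 (standard error 0.13, adjusted p = 0.0383), from 8.99 and 8.81 to 8.18 and 8.44 in the primary run and from 8.78 and 8.81 to 7.57 on both arrays in the PCA run. It was the only call among 25 genes of fatty acid activation and oxidation, of which 23 were below 0 (median -0.21), and EHHADH, a peroxisomal oxidation enzyme, was at -0.47. ALDH6A1 and MMUT, enzymes of the route from valine and propionate to succinyl-CoA, fell, with common effects of -0.84 and -0.65. They were the 2 calls among 24 genes of branched-chain amino acid and propionate breakdown, of which 23 were below 0 with a median of -0.28 (-0.12 in the primary and -0.41 in the PCA run). The exception, BCAT1, the cytosolic transaminase, was at 0.31. ATP8B1, a flippase of the plasma membrane, fell by 1.08 (standard error 0.18, adjusted p = 0.0396), from 8.91 and 8.74 to 8.03 and 8.42 in the primary run and from 9.06 and 9.03 to 7.56 and 7.40 in the PCA run. Of 15 tested flippases and partners it was the only call, with a list median of -0.10 that turned to 0.02 under ribosomal scaling. Further falls of enzymes were those of ADH6, an alcohol dehydrogenase (-0.77), MAOA, a monoamine oxidase (-0.75), EPHX2, the soluble epoxide hydrolase (-0.66), and SMPD1, the lysosomal sphingomyelinase (-0.68).

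Complement and coagulation factors are plasma proteins that liver cells and some epithelia make. Of the 38 lists of 10 or more genes plotted further on, theirs had the median farthest from 0 in the common effect and in the PCA run, but not in the primary run. Of 24 tested genes 4 fell: C5, the complement factor (-0.73), C1RL, a relative of the protease C1r (-0.64), and FGB and FGG, chains of fibrinogen (-0.64 and -0.60). FGB went from 11.51 and 11.48 to 11.09 and 11.16 in the primary run and from 11.80 and 11.79 to 10.82 and 10.96 in the PCA run. C5 went from 9.998 and 9.89 to 9.42 and 9.66 and from 10.39 and 10.43 to 9.32 and 9.40. FGA, the remaining fibrinogen chain, was at -0.53 (adjusted p = 0.0549) and did not pass. The list median was -0.31 (-0.10 in the primary and -0.50 in the PCA run; -0.28 after quantile normalization), and 5 genes were above 0, among them CD55, which guards cells against complement, at 0.51. CDH1, the adhesion protein E-cadherin, fell by 0.76 (adjusted p = 0.0396), from 10.15 and 10.08 to 9.70 and 9.71 in the primary run and from 10.35 on both controls to 9.29 and 9.19 in the PCA run. It was the only call among 21 junction genes, whose median was -0.12, with -0.16 to -0.06 without single arrays. ACTA2, an actin of smooth muscle, fell by 0.83 (standard error 0.10, adjusted p = 0.0306), from 8.15 and 8.22 to 7.59 and 7.46 in the primary run and from 8.15 and 8.28 to 7.03 and 7.39 in the PCA run. The median of 16 contractile genes and targets of SRF was 0.08 (0.02 to 0.11 without single arrays), but it was -0.05 in the primary and 0.11 in the PCA run. Without the second primary array the primary median was 0.02. None of the other 15 was called, with TAGLN at 0.09 and MYL9 at 0.24.

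The lists of NRF2, aryl hydrocarbon receptor, AP-1, heat shock and metallothionein genes held no call. Of 27 tested NRF2 antioxidant genes 0 passed, with 1 higher and 6 lower at an unadjusted p under 0.05 in limma at any fold. With the 1.5-fold limit, 0 were called with a trended and robust prior or by an unadjusted analysis of variance. HMOX1 was at -0.04, NQO1 at -0.18 and GCLM at -0.06, 26 of the 27 were below 0, and the median was -0.12 (-0.01 under ribosomal scaling). That median was -0.01 in the primary and -0.23 in the PCA run, and 16 of the 27 had the same sign in both runs. Without the second control of the primary run the primary median was 0.0025, and without the second primary array 0.001. The list had a median signal of 12.3, within the bin of highest signal, whose median common effect was -0.08. Of 8 tested genes of the aryl hydrocarbon receptor 0 passed by the limma and analysis of variance tests above, with 1 higher and 1 lower at an unadjusted p under 0.05, CYP1A1 at -0.16 and CYP1B1 at -0.17. Of 24 AP-1 and immediate early genes 0 passed, with 7 higher and 1 lower at an unadjusted p under 0.05 and 0 called in the other tests. The AP-1 list had a median of 0.12 (0.06 in the primary and 0.20 in the PCA run) with 21 members above 0. Of the 24, 13 had the same sign in both runs, beside 65.6% of all genes. Without the first primary array the primary median was -0.04. NR4A1, an orphan nuclear receptor, was at 0.49 (adjusted p = 0.0563). Of 18 heat shock genes and 12 metallothionein genes 0 passed by any of these tests, with 7 and 2 at an unadjusted p under 0.05.

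None of the cell cycle genes of the G2 and M phases was called. Of 31 tested, 21 were lower and 0 higher at an unadjusted p under 0.05 in limma at any fold, and 30 were below 0. The median was -0.20 (-0.09 in the primary and -0.30 in the PCA run). With the 1.5-fold limit, 0 were called with a trended and robust prior or by an unadjusted analysis of variance. The primary median was -0.03 without the first primary array and also without the first control of that run. Of 45 replication-dependent histone genes 41 were below 0, with a median of -0.22 (-0.03 in the primary and -0.44 in the PCA run). The primary median was 0.01 without the second control of that run. Of the 45, 27 had the same sign in both runs, as did 65.6% of all genes. H3C10 fell by 0.59. As many of the histone genes are near-identical copies, their probe sets may share signal. The medians of 37 ribosome biogenesis genes (0.11), 63 cytoplasmic ribosomal protein genes (-0.13) and 75 respiratory chain genes (-0.13) differed in sign. With the 1.5-fold limit, 0 were called in each list by limma with either prior and by the unadjusted analysis of variance. At an unadjusted p under 0.05 in limma and any fold there were 13 higher and 1 lower, 1 higher and 25 lower, and 0 higher and 22 lower genes in these lists. Scaling the arrays to ribosomal protein genes, which raised all genes alike, brought the respiratory chain median to -0.01. The ribosomal protein median was also -0.01, but that scaling fixes it near 0 by construction.

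**Figure D4:**
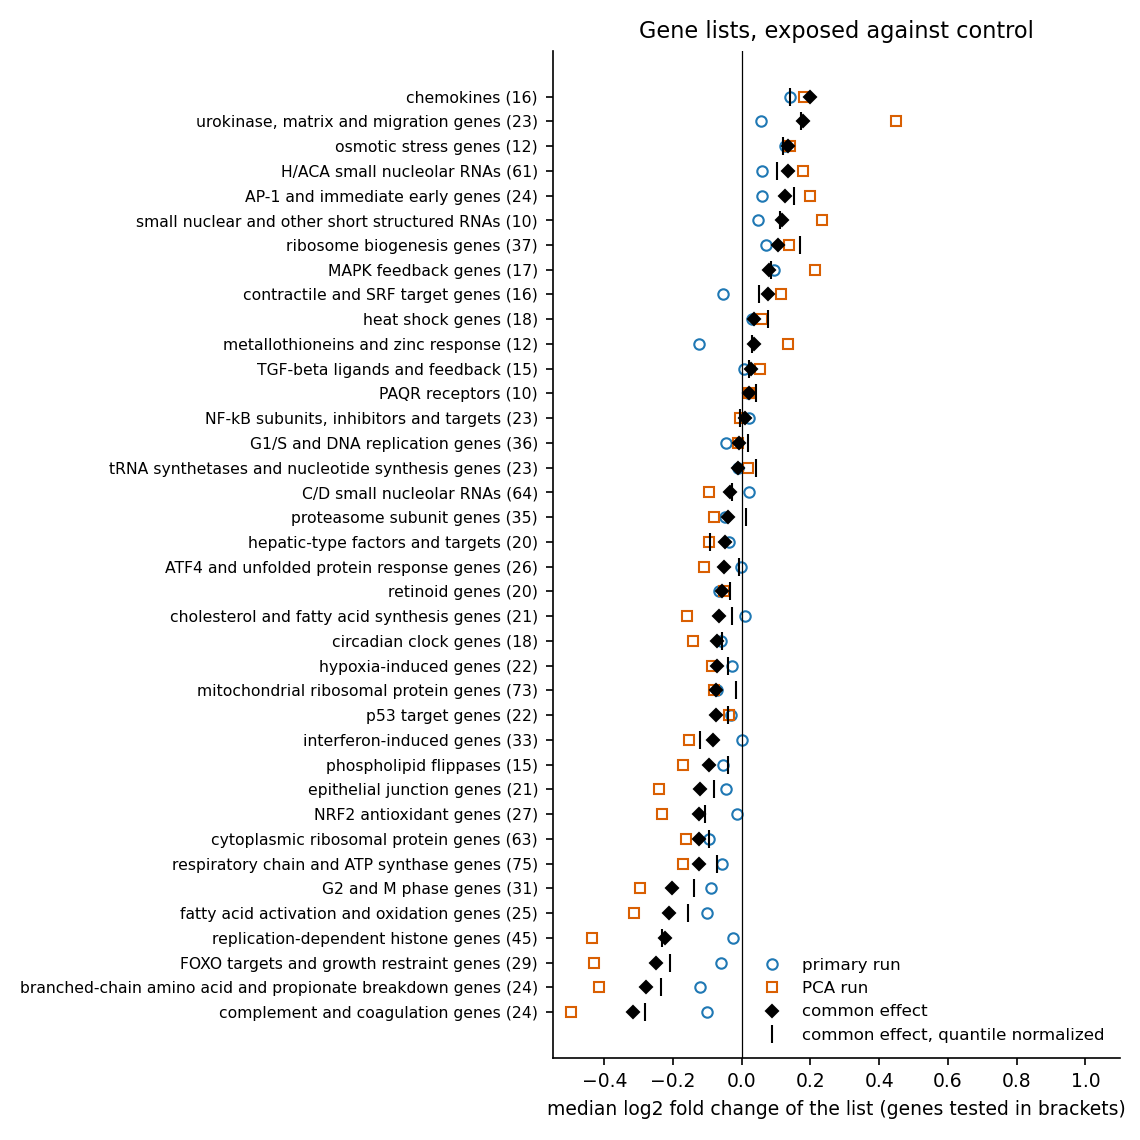
Median log2 fold change (x axis) of 38 lists of 10 or more tested genes (y axis, number tested in brackets) in the primary run, in the PCA run, in the common effect, and in the common effect after quantile normalization. The common median is above 0 in 14 lists and below 0 in 24, and the PCA median is farther from 0 than the primary median in 35. The sign turned in 4 lists under cyclic loess and in 4 after quantile normalization; ribosomal scaling and median centring move all genes by the same amount, to medians of 0.12 and -0.04, and so turned the 14 lists that lay least below 0 and the 5 that lay least above it.

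Some genes had estimated effects of opposite sign in the runs. The 5 of these with the smallest p for the difference between the runs were RARB, DAPK1, JUN, GLIPR1 and SNORD114-2. JUN, a subunit of AP-1, went from 7.15 and 7.23 to 6.90 and 6.96 in the primary run and from 7.29 and 7.28 to 8.09 and 7.98 in the PCA run, and the pooled effect of 0.25 (adjusted p = 0.381) described neither. GLIPR1, a secreted protein of the CAP family, was at 7.11 and 7.03 on the controls of the primary run and 7.0 and 7.14 after exposure, but went from 6.94 and 6.92 to 8.16 and 7.98 in the PCA run. RARB, a retinoic acid receptor, stayed at 8.72 and 8.91 against 8.89 and 8.73 in the primary run and went from 8.93 on both controls to 7.66 and 7.64 in the PCA run, for a difference of -1.28 (adjusted p = 0.023). DAPK1, a death-associated kinase, went from 10.72 on both controls to 10.83 and 10.89 in the primary run and from 10.78 and 10.80 to 10.002 and 9.94 in the PCA run. SNORD114-2, a small nucleolar RNA, was lower in the primary run (5.72 and 5.55 against 5.19 and 5.23) and higher in the PCA run (5.35 and 5.44 against 6.03 and 5.96). ACTB, the actin used as the PCR reference in the study, was at 13.50 and 13.51 against 13.48 and 13.24 in the primary run and at 13.62 and 13.53 against 13.57 and 13.52 in the PCA run.

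Beyond genes with a symbol of their own, 61 further probe sets passed the same test, 40 higher and 21 lower, and 37 and 19 of these had no single symbol.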

How the data were processed

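RNA of A549 cells was hybridized to 8 Human Gene 1.0 ST arrays. The authors deposited values on a log2 scale after robust multichip average normalization, and the submitters' processing notes name Partek 6.4. Of 28869 probe sets, 19310 carried 1 symbol, 1752 several and 7807 none; the 19310 gave 18377 genes, each represented by whichever of its probe sets was brightest on average. Probe sets with a signal of 30 or more on at least 1 of the 8 arrays were tested, 25412 in all, covering 17540 genes. Groups came from the sample titles.

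Exposure was fitted with run as a block in limma 3.58.1 under R 4.3.3 (lmFit, eBayes; 5 residual degrees of freedom and a prior of 4.30), and run effects and their difference were fitted on group means. The fits were tested on simulated data. Plots used matplotlib 3.10.9 under Python 3.11.15. Precision is limited by having 8 arrays, with a median standard error for the common effect of 0.08 on the log2 scale.

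The comparison, genes and lists were chosen with earlier results of these data known. Named genes were the 12 largest rises and falls among called genes with separated arrays, the 8 of each direction with the largest smaller-of-the-runs effect, up to 2 called genes a list, the 5 most different genes of opposite sign, genes checked by PCR, and ACTB. Members of families named without a call, and further called genes, were chosen after their values were seen. Lists were described by counts and medians without a test. Alternatives covered filter, scaling, model, prior, test, thresholds, probe set summary and each array left out. Promoters were read from a RefSeq table of GRCh38.p14. GFPT2, which has no probe set of its own here, was not analysed.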

Additional observations from a re-analysis of the deposited data

Results flagged for a closer look

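Each gene here was noted because its effect differed between the PCA run and the primary run by a test of that difference in limma at an adjusted p under 0.05. Values are the PCA response less the primary response on the log2 scale. No group holds 4 arrays, so single arrays were not tested as outliers. Among genes that rose in the pooled comparison, FGFBP1 differed by 1.52. Among those that fell, DHRS3 differed by -1.36, LXN by -1.20, TP53INP1 by -1.09, SYNE2 by -0.97, ALDH6A1 by -0.96, KLHL24 by -0.96, PBLD by -0.92, MBOAT1 by -0.88, TNFSF10 by -0.87, BCO1 by -0.86, C1RL by -0.74, DEPTOR by -0.72 and CDH1 by -0.70. Among genes with estimated effects of opposite sign, RARB differed by -1.28, DAPK1 by -0.96, JUN by 1.01, GLIPR1 by 1.14 and SNORD114-2 by 1.02. Between 0 and 3 of all genes passed this test when any single array was left out. Mixture, time of day and culture set differ together between the runs and cannot be told apart.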

How the results depend on the processing

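Over 81 genes, 812 alternative values kept their direction and their side of the threshold, 3 moved past it, 876 no longer passed and 5 turned their direction, none of them of a called gene. SNORD114-2, at 0.09, was at -0.0101 with cyclic loess, -0.00715 after quantile normalization, -0.0313 without the first control of the PCA run and -0.0283 without the first PCA array (-0.0313 to 0.224 without single arrays), and ACTB, at -0.09, was at 0.0312 under ribosomal scaling. The cause of these moves was not tested. Against the 75 calls of the common effect (17 rises, 58 falls), there were 17 in all without a filter (7 and 10), 49 with cyclic loess (32 falls), of which 41 were among the 75, and 46 with quantile normalization (31 falls), of which 40 were; the last was added after the data were seen. Scaling to ribosomal protein genes gave 73 rises and 30 falls of 103, with the median of all genes at 0.12, and median centring gave 12 and 87 of 99. A fit on group means, which leaves the difference between the runs out of the spread, gave 27 rises. An analysis of variance with Benjamini-Hochberg adjustment called 1 gene (1 rise, 0 falls). At an unadjusted p under 0.05, the methods' limit on p before their limit on q, and with the 1.5-fold limit kept, it called 96. The like count in limma was 100. limma's treat called 0, with 0 in each direction, against 4661 genes at an unadjusted p under 0.05 and any fold in limma. With no fold limit 487 passed (124 and 363), at an adjusted p under 0.01 there were 3 (3 and 0), and at a fold limit of 2 there were 5 (1 and 4).

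Leaving out single arrays gave 0 to 187 calls, 0 to 45 rises and 0 to 142 falls. In the primary run it gave 0 to 0 and in the PCA run 528 to 673, and a trended and robust prior called 6 in the primary run. The 77 differences between the runs became 16 without a filter, 247 at a minimum signal of 100, 278 with a trended and robust prior, and 0 to 3 without single arrays.

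Replicate numbers do not pair the arrays by the labels. Arrays of the same number deviated from their group means with correlations of -0.10 in the morning run and 0.00477 in the evening run. With the replicate block 0 genes were called, with 0 rises and 0 falls.

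Signal limits what can be seen at the low end, where probe sets under 30 on every array were not tested. Arrays of a group share a run, so no value measures the spread between repeated exposures.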
